A study of Homo sapiens with 6 samples.

Results

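The collagen genes are the genes whose symbol is COL, a type number from 1 to 28, the letter A and a chain number, such as COL1A1. They were taken by symbol alone, without regard to measured values, and 43 of the 18417 genes measured on the arrays met that rule. RefSeq lists 44 such genes, and the remaining one, COL17A1, had no named probe set of its own here and was not analysed. Only COL11A2 had more than 1 probe set, and its brightest was used.

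Expression was measured on 6 arrays in the established human Ewing tumor lines A673 and SK-N-MC. Each line gave 2 arrays of cells that received a small interfering RNA (siRNA) against STEAP1, numbered siRNA 2 and siRNA 3 (group siSTEAP1), and 1 array of cells that received a non-silencing control siRNA. The siRNA was present at 5 nM for 48 h, and an siRNA keeps its number in both lines. Both lines are single established lines with 1 control array each, nothing in the labels tells whether arrays of a line came from separate cultures, and p-values therefore measure only the spread between these arrays.

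Collagens are the main structural proteins of the extracellular matrix. Each molecule is a trimer of alpha chains rich in glycine and proline, wound around each other into a helix, and the chains of one molecule can be products of different genes. Fibrillar collagens form banded fibrils, type IV collagens form the sheet of basement membranes, and type VI collagens form beaded filaments around cells. FACIT collagens sit on the surface of fibrils, transmembrane collagens stay anchored in the cell membrane, and multiplexins lie at basement membranes and release fragments such as endostatin. Newly made chains are hydroxylated, glycosylated and folded in the endoplasmic reticulum before export, trimming and crosslinking. Ewing tumors are bone and soft tissue tumors driven by a fusion of EWSR1 with an ETS factor gene.

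Each value below is the log2 of a deposited intensity. Differences are given on the log2 scale with the standard error (SE) of the limma fit, and a gene is called where the Benjamini-Hochberg adjusted p over all 18417 genes is under 0.05. The median of all probe sets on an array lay between 2.59 and 2.70. Of the 43 collagen genes, 24 were above that median in all 6 arrays, 15 were below it in all 6 and 4 were above it in some. No detection calls were used, so values of the 15 have no stated floor. A mean of at least 4 was reached by 13 collagen genes (30.2%), against 40.3% of all genes. Levels of different genes were not set against each other, because each probe set has its own response.

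Markers of the labelled tumor type were checked first. CD99 lay between 9.40 and 10.25 over the 6 arrays, LIPI between 6.35 and 7.33, NKX2-2 between 5.57 and 6.15 and PAX7 between 5.07 and 5.88. CCK was at 2.47 to 2.65 in A673 and 4.03 to 4.59 in SK-N-MC. Of 6 fibroblast markers, LUM, PDGFRA and POSTN lay at or below 1.52 in every array. THY1 was at 6.61 to 7.16 in A673 and 2.29 to 2.51 in SK-N-MC, while DCN (1.37 to 1.70 in A673, 3.10 to 4.17 in SK-N-MC) and FAP (1.16 to 1.68 in A673, 2.87 to 3.67 in SK-N-MC) ran the other way. The median of the fibroblast list was 1.248 to 1.560 in A673 and 1.843 to 2.003 in SK-N-MC. All 4 endothelial and 3 leukocyte markers measured were at or below 2.15. In RNA of whole cultures, fewer cells of a type and less RNA per cell cannot be told apart. The SK-N-MC control array stood apart in interferon genes: the median of 23 such genes was 3.59 with siRNA 2, 4.75 with siRNA 3 and 6.07 in the control array of SK-N-MC, against 2.06 to 2.11 on the A673 arrays. Its part in the collagen values was not tested.

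**Figure D1:**
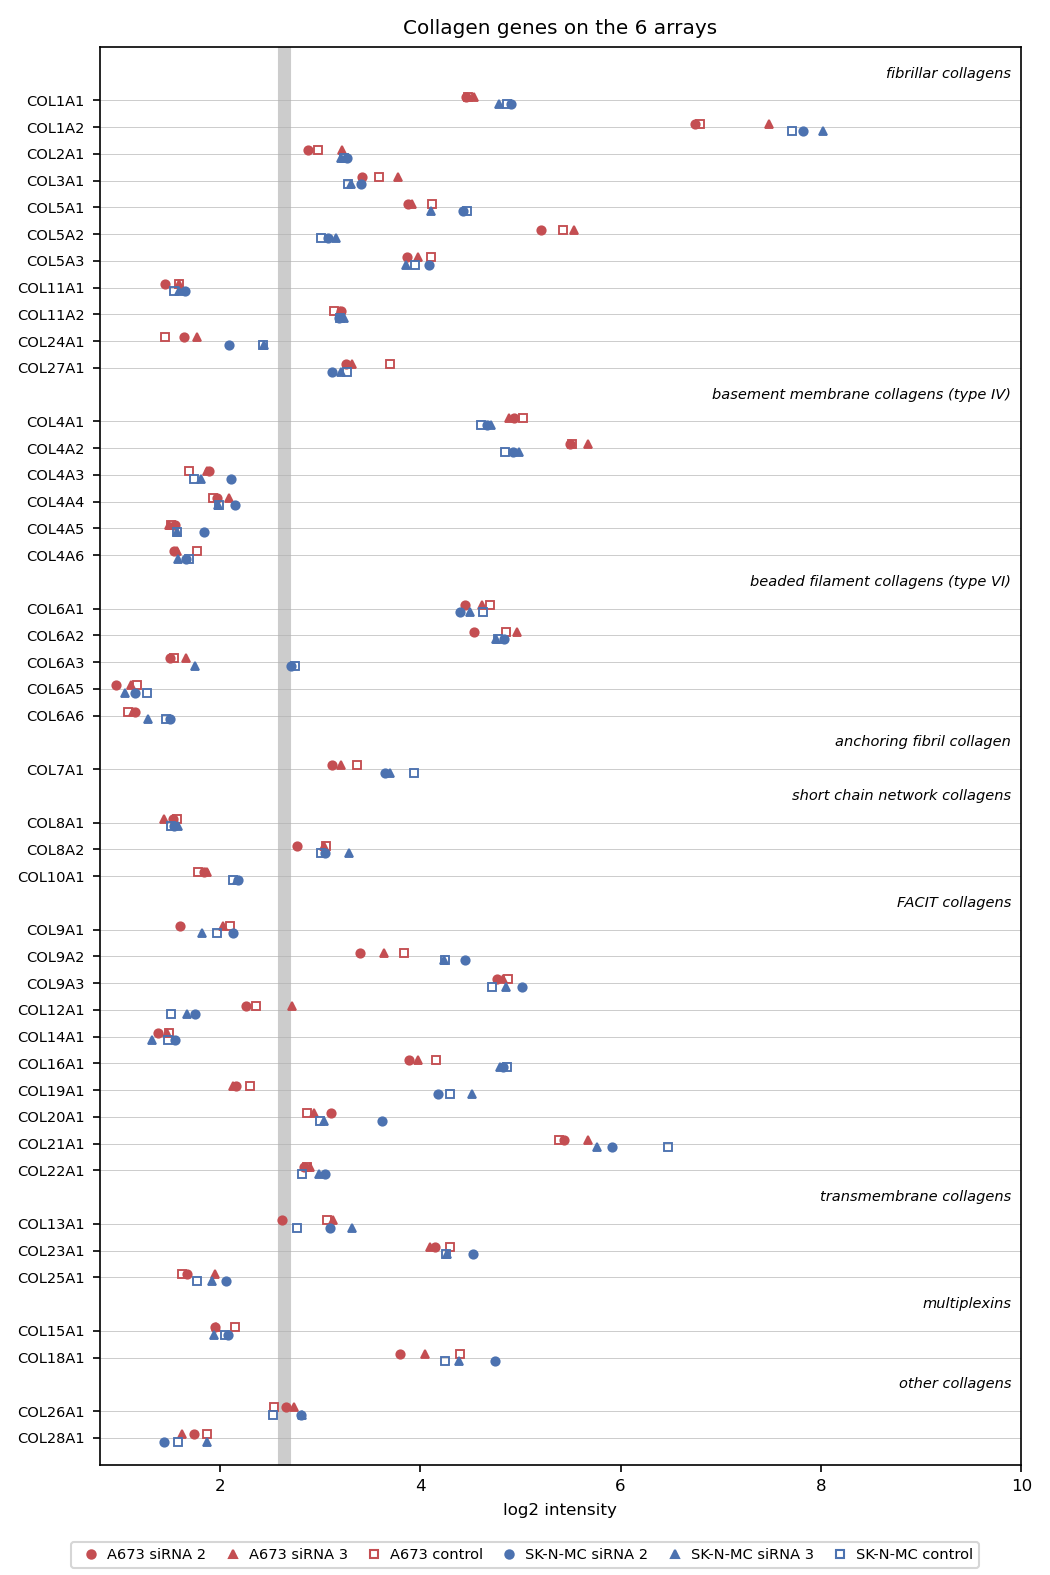
Log2 intensity of the 43 collagen genes (horizontal axis) on each of the 6 arrays, grouped by collagen class. Red marks are A673 and blue marks SK-N-MC, filled circles siRNA 2, filled triangles siRNA 3 and open squares control arrays, and the grey band spans the array medians (2.59 to 2.70). COL5A2 and COL19A1 are the genes whose marks separate most widely by line.

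The first comparison asks how the collagen genes differ between the cell lines. COL5A2, which codes for a chain of type V collagen, a minor fibrillar collagen that regulates fibril diameter, was higher in A673. COL19A1, which codes for a FACIT-type collagen of basement membrane zones, was lower in A673. These were the only members called with a difference of at least 1 on the log2 scale. A further 8 genes were called lower in A673, among them COL1A2, COL16A1 and COL9A2, and 2 more were called higher, COL12A1 and COL4A2. In all, 12 of 43 collagen genes were called (27.9%), where 24.8% of all genes were called, so the share was near that of all genes. By direction, 3 collagen genes were higher (6.98%) against 13.5% of all genes, and 9 were lower (20.9%) against 11.4% of all genes. The count of lower genes was 5 without either control array and 4 with values under 3 set to 3, where the calls over all genes in both directions also fell, to 17.4% and 10.1%. The median difference of the 43 genes was -0.07, against -0.02 over all genes.

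COL5A2 was at 5.21 with siRNA 2, 5.53 with siRNA 3 and 5.43 in the control array of A673, against 3.08, 3.16 and 3.01 in the same order in SK-N-MC. All 3 A673 arrays were above all 3 SK-N-MC arrays, whichever siRNA the cells had received. The difference was 2.31 (SE 0.12), or 4.94-fold, with limma adjusted p = 8.07e-06. It stood between 2.23 and 2.41 under the alternatives for the processing. Type V molecules hold chains of COL5A1, COL5A2 and, in some tissues, COL5A3. COL5A1, which codes for the chain that most type V molecules contain, was at 3.88, 3.92 and 4.11 in A673, against 4.43, 4.11 and 4.47 in SK-N-MC, and the A673 control array met the SK-N-MC siRNA 3 array at 4.11. Its difference of -0.36 (SE 0.12) was not called (limma adjusted p = 0.0598), but was called without the SK-N-MC siRNA 3 array (-0.46, limma adjusted p = 0.0378) and among genes with a mean of at least 4 (limma adjusted p = 0.0408). COL5A3 was at 3.86, 3.98 and 4.11 in A673, against 4.08, 3.86 and 3.95 in SK-N-MC. The ranges overlapped, and its difference of 0.02 (SE 0.12) changed sign under 4 alternatives. Leaving out either control array gave the same value (-0.05), as the line difference then rests on the siRNA arrays alone. The chains of one collagen type thus had unequal differences between the lines.

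COL19A1 was at 2.16 with siRNA 2, 2.14 with siRNA 3 and 2.30 in the control array of A673, against 4.18, 4.52 and 4.29 in SK-N-MC. The A673 values were below the array median and the SK-N-MC values above it. The difference was -2.13 (SE 0.13, limma adjusted p = 1.29e-05), and the same sign held for siRNA 2 arrays (-2.01), siRNA 3 arrays (-2.38) and control arrays (-1.99) taken alone. Because the A673 values were below the array median, its size is uncertain: with values under 3 set to 3 it was -1.33 and still called.

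**Figure D2:**
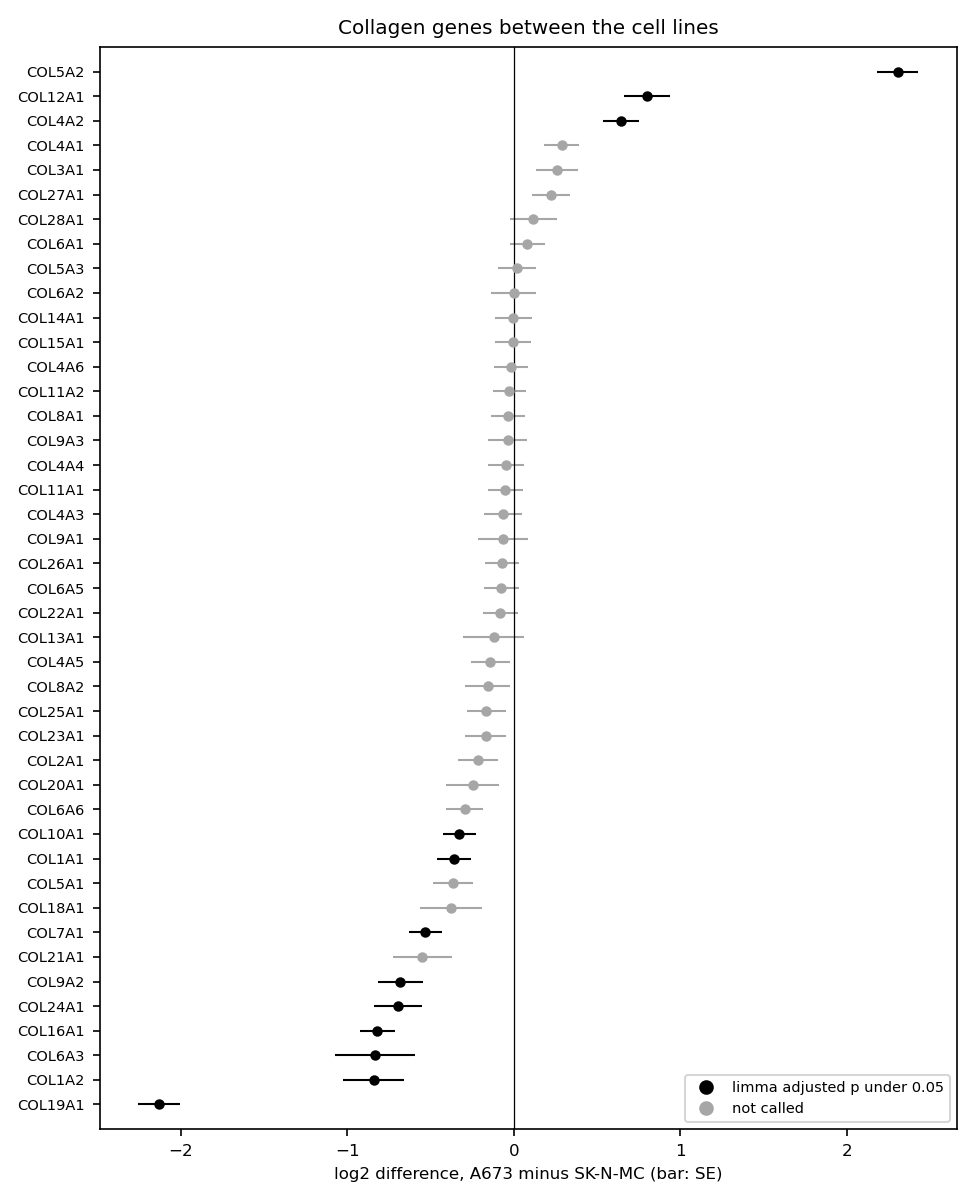
Log2 difference between the lines, A673 minus SK-N-MC, for each of the 43 collagen genes (points, with bars of 1 SE), in order of size. Black points are genes with a limma adjusted p under 0.05, and COL5A2 (2.31) and COL19A1 (-2.13) lie far outside all other genes, which run from -0.84 to 0.80.

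Among the fibrillar collagens, 1 of 11 genes was called higher in A673 (COL5A2) and 3 were called lower. COL1A2, which codes for a chain of type I collagen, the major collagen of bone, was at 6.74, 7.48 and 6.80 in A673, against 7.82, 8.02 and 7.71 in SK-N-MC. All A673 values were below all SK-N-MC values, and the difference was -0.84 (SE 0.19, limma adjusted p = 0.0111). It lost its call without either control array (-0.81 in both cases, limma adjusted p = 0.0696) and with values under 3 set to 3 (limma adjusted p = 0.164). No COL1A2 value was under 3, so its difference was unchanged in that last setting. COL1A1, the partner chain of the type I molecule, was at 4.46, 4.53 and 4.48 in A673, against 4.90, 4.78 and 4.87 in SK-N-MC. Its difference of -0.36 (SE 0.10, limma adjusted p = 0.0353) lost its call without any single array (limma adjusted p 0.0554 to 0.143), after median centring (0.0681) and with a trended prior (0.0608). COL24A1 was at 1.65, 1.77 and 1.45 in A673, against 2.09, 2.44 and 2.43 in SK-N-MC (-0.69, SE 0.14, limma adjusted p = 0.00796). These values were below the array median in all 6 arrays, and the call was lost without either control array (-0.55, limma adjusted p = 0.0643). The 7 fibrillar genes without a call included COL2A1 of cartilage (-0.21, SE 0.12) and COL3A1 of vessel walls and skin (0.26, SE 0.13). COL3A1 was at 3.42, 3.78 and 3.59 in A673, against 3.41, 3.31 and 3.28 in SK-N-MC, and the siRNA 2 arrays of the lines differed by 0.0043.

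Of the 6 type IV genes, COL4A2 was called higher in A673 and none lower. COL4A1 and COL4A2 code for the chains of the common basement membrane molecule. COL4A2 was at 5.50, 5.68 and 5.51 in A673, against 4.93, 4.98 and 4.84 in SK-N-MC, with no overlap (0.64, SE 0.11, limma adjusted p = 0.00266). COL4A1 was at 4.94, 4.88 and 5.02 in A673, against 4.67, 4.71 and 4.60 in SK-N-MC. The lines did not overlap here either, but the difference of 0.29 (SE 0.11) was not called (limma adjusted p = 0.0875), except after median centring of the arrays (0.34, limma adjusted p = 0.0485). COL4A3, COL4A4, COL4A5 and COL4A6, the chains of specialised basement membranes such as that of the kidney glomerulus, were below the array median in all 6 arrays and had differences from -0.14 to -0.02.

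COL4A1 and COL4A2 lie head to head on chromosome 13, and RefSeq places their starts 127 bases apart on opposite strands, so their windows of 250 bases before to 50 bases after the start share 226 bases. The sequences of that window and of those of COL12A1 and COL19A1 are shown because these genes had called differences and an entry in the RefSeq promoter table (build GRCh38.p14), where 31 of the 43 genes were found. Each runs 5′ to 3′ on the gene's own strand, and capitals mark matches on either strand to TATAAA (the TATA box), to CCAAT (the letters that NF-Y binds), to GGGCGG (the GC box of Sp1) or to GGAAGGAA (neighbouring copies of the core that the EWSR1-FLI1 fusion protein binds in longer repeats).
COL4A2, chr13:110307034-110307333, plus strand: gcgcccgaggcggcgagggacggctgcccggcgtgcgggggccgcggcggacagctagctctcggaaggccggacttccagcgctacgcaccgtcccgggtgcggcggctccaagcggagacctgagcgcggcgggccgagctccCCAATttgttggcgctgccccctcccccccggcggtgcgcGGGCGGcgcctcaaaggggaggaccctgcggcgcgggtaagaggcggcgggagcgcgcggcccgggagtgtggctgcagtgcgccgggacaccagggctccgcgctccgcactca
COL12A1, chr6:75206004-75206303, minus strand: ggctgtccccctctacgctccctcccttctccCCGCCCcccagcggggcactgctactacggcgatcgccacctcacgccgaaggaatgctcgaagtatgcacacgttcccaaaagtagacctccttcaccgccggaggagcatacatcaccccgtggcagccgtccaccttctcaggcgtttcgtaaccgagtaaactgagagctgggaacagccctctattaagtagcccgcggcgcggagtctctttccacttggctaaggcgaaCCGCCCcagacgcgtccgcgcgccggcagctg
COL19A1, chr6:69866306-69866605, plus strand: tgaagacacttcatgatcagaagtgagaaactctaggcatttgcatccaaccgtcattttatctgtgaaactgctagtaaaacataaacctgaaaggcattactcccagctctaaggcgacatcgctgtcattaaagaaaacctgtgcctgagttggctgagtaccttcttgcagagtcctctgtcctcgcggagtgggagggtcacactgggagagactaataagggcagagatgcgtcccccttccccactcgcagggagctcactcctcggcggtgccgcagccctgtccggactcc
The COL4A2 window had a CCAAT that begins at position -105 and a GGGCGG that begins at position -65, counted from the COL4A2 start. The COL12A1 window had GGGCGG on the opposite strand at positions -218 and 19, and the COL19A1 window held none of the 4 motifs. No 2 of these motifs overlapped in the windows. G and C made up 77.7% of the COL4A2 window, 63.3% of that of COL12A1 and 52.3% of that of COL19A1, against a median of 58.7% over all 35116 windows of that length. Of all windows, 11.5% held TATAAA, 34.6% held CCAAT, 45.0% held GGGCGG and 3.67% held GGAAGGAA. A match is a description of letters and not a site.

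**Figure D3:**
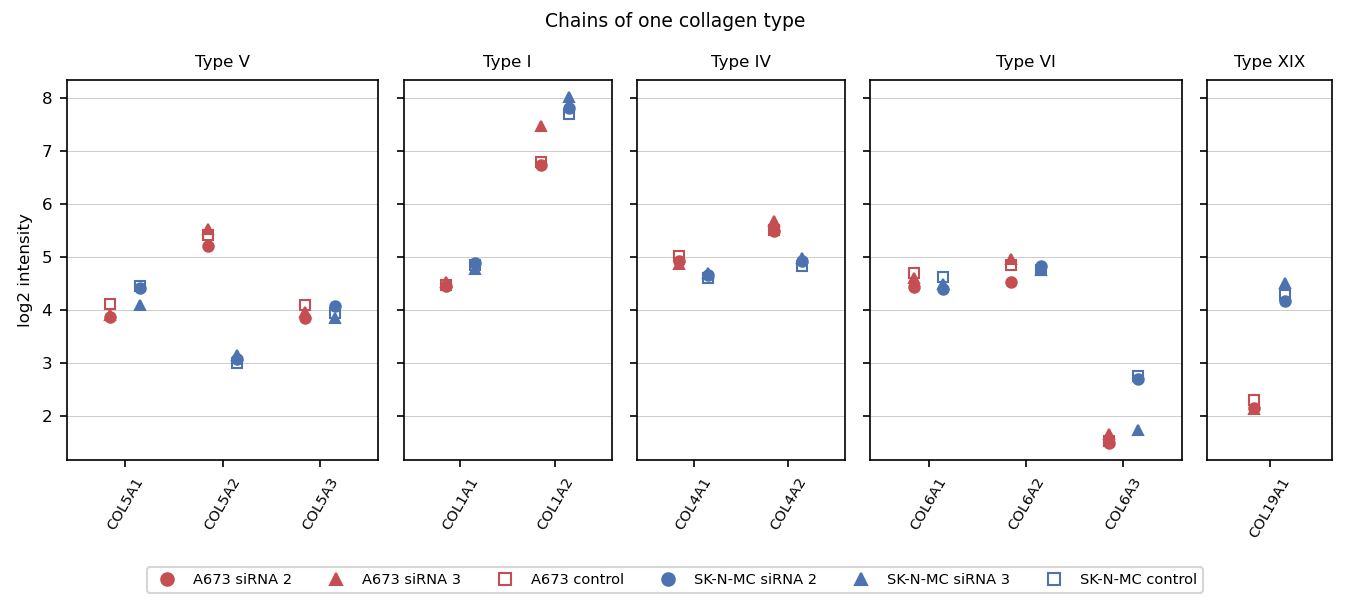
Log2 intensity of chains of 5 collagen types on each array (vertical axis), with red A673 marks to the left of blue SK-N-MC marks, and filled circles for siRNA 2, filled triangles for siRNA 3 and open squares for control arrays. COL5A2 separates the lines while COL5A3 does not, and COL6A3 has 1 SK-N-MC array, that of siRNA 3 (1.75), near the A673 arrays.

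Among type VI genes, COL6A1 (0.08, SE 0.11) and COL6A2 (-0.0011, SE 0.13) overlapped between the lines, and COL6A3, the third chain of the usual type VI molecule, was called lower in A673. COL6A3 was at 1.51, 1.67 and 1.54 in A673, against 2.71, 1.75 and 2.76 in SK-N-MC (-0.83, SE 0.24, limma adjusted p = 0.0362). The SK-N-MC siRNA 3 array was 1.01 below its control array, the largest such difference among all collagen genes, and only the other SK-N-MC arrays were above the array median. The call was lost without any array except SK-N-MC siRNA 3, with differences from -0.93 to -0.61, and stood at -1.16 without that array. COL6A5 and COL6A6 were below the array median throughout and were not called.

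Of the 10 FACIT genes, 1 was called higher in A673 and 3 lower, COL19A1 among them. COL12A1, a collagen of dense connective tissue that lies along type I fibrils, was at 2.26, 2.72 and 2.36 in A673, against 1.75, 1.68 and 1.51 in SK-N-MC (0.80, SE 0.14, limma adjusted p = 0.00320). It was above the array median in 1 array only, that of A673 with siRNA 3. COL16A1, which lies at fibrils and cell surfaces, was at 3.89, 3.98 and 4.16 in A673, against 4.83, 4.80 and 4.86 in SK-N-MC (-0.82, SE 0.10, limma adjusted p = 7.11e-04). COL9A2, a chain of the cartilage collagen type IX, was at 3.40, 3.64 and 3.84 in A673, against 4.45, 4.24 and 4.25 in SK-N-MC (-0.68, SE 0.14, limma adjusted p = 0.00687), and lost its call with values under 3 set to 3 (limma adjusted p = 0.0933). No COL9A2 value was under 3, so its difference was unchanged in that setting. The other chains of type IX, COL9A1 (-0.07, SE 0.15) and COL9A3 (-0.04, SE 0.12), overlapped between the lines. COL21A1 was not called (-0.55, SE 0.18, limma adjusted p = 0.0539), and its lines differed by -0.47 on the siRNA 2 arrays, -0.09 on the siRNA 3 arrays and -1.09 on the control arrays.

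COL7A1, the anchoring fibril collagen that fastens epithelium to the matrix beneath, was at 3.12, 3.21 and 3.37 in A673, against 3.65, 3.70 and 3.94 in SK-N-MC (-0.53, SE 0.10, limma adjusted p = 0.00554). The lines did not overlap. Among the short chain collagens, COL10A1, the collagen of hypertrophic cartilage, was at 1.85, 1.87 and 1.78 in A673, against 2.18, 2.17 and 2.13 in SK-N-MC (-0.33, SE 0.10, limma adjusted p = 0.0450). It was below the array median in all 6 arrays and lost its call without any single array (limma adjusted p 0.0776 to 0.165). The call was also lost after a second quantile normalization (limma adjusted p = 0.0780), after median centring (0.0972), with a trended prior (0.0558) and with the replicate number as a block (0.0608). COL8A1 and COL8A2, collagens of vessel walls and of the membrane under the corneal endothelium, were not called (-0.03 and -0.16). The 3 transmembrane genes measured had differences from -0.17 to -0.12, the multiplexins COL15A1 and COL18A1 were at -0.0049 (SE 0.11) and -0.38 (SE 0.19), and COL26A1 and COL28A1 were at -0.07 and 0.12. None of these 7 genes was called.

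COL5A2, COL4A2, COL19A1, COL16A1 and COL7A1 stayed called under every alternative that gave them a value. COL12A1 was under 3 in all 6 arrays, so it kept no difference with values under 3 set to 3. It stayed called under the other alternatives that tested it. The other 6 calls were lost under at least 1 alternative. The lines did not overlap in 17 collagen genes, 5 of them higher and 12 lower in A673, where 37.9% of all genes had no overlap. After median centring, 4 collagen genes were called higher and 7 lower, so higher genes made up 36.4% of the calls in place of 25%, while 24.5% of all genes were called. Without either control array 3 were called higher and 5 lower, a share of 37.5% higher.

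Collagen genes that are next neighbours among the protein-coding genes of RefSeq were compared in the same fit, as 7 pairs. COL5A2 lies beside COL3A1, with differences of 2.31 (SE 0.12) and 0.26 (SE 0.13). COL19A1 lies beside COL9A1, with differences of -2.13 (SE 0.13) and -0.07 (SE 0.15). The largest differences in either direction were thus not shared with the neighbouring collagen gene. Of the other 5 pairs, only that of COL4A1 and COL4A2 (0.29 and 0.64) had a call, and the remaining 4 pairs had differences from -0.29 to 0.08.

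Genes that make, export, trim and bind collagen were taken as 5 lists with 65 members measured. Of these, 16 were called higher and 6 lower in A673, together 33.8% where 24.8% of all genes were called. By direction, 13.5% of all genes were called higher and 11.4% lower. Among the enzymes and chaperones of the endoplasmic reticulum, 8 of 17 were higher and 1 lower, with a median difference of 0.46 against -0.02 over all genes. PLOD3, a lysyl hydroxylase that also glycosylates hydroxylysine, was at 6.45, 6.71 and 6.57 in A673, against 4.30, 4.83 and 5.15 in SK-N-MC (1.82, SE 0.18). The lysyl hydroxylase genes PLOD1 (0.83, SE 0.12) and PLOD2 (0.81, SE 0.15) were also higher in A673. PLOD2 was not called with values under 3 set to 3 (limma adjusted p = 0.0913), though it had no value under 3 and its difference was unchanged. P3H4, a partner of the collagen hydroxylases, was lower (-0.60, SE 0.16). The remaining 5 higher genes, outside the fixed naming rule, were P4HB, PPIB, COLGALT1, SERPINH1 and FKBP14, with differences of 0.46 to 0.80.

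In the export list, 2 of 9 genes were higher and 1 lower, where 13.5% of all genes were called higher and 11.4% lower. SEC24D, a coat component of the vesicles that carry procollagen, was at 4.73, 3.60 and 4.63 in A673, against 2.69, 2.60 and 2.60 in SK-N-MC (1.69, SE 0.26). The coat gene SEC13 was higher (0.53, SE 0.12) and KLHL12, an adaptor that enlarges these vesicles, was lower (-0.44, SE 0.13). In the trimming and crosslinking list, 2 of 15 were higher and 1 lower. PCOLCE, which enhances the removal of the C-propeptide, was at 5.38, 5.37 and 5.03 in A673, against 6.40, 6.47 and 6.67 in SK-N-MC (-1.25, SE 0.14). The propeptide protease gene TLL1 (0.65, SE 0.10) and the crosslinking enzyme gene LOXL1 (0.49, SE 0.13) were higher. The calls of SEC13, KLHL12, LOXL1 and P3H4 were each lost without at least 3 of the 6 single arrays.

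Of 11 collagen receptors, 2 were higher and 1 lower in A673, where 13.5% of all genes were called higher and 11.4% lower. DDR2, a receptor tyrosine kinase for fibrillar collagen, was at 7.52, 7.50 and 7.41 in A673, against 5.46, 6.23 and 5.80 in SK-N-MC (1.64, SE 0.18). ITGB1, the beta chain shared by the collagen-binding integrins, was higher (0.96, SE 0.11), and ITGA2, one of its alpha chains, was lower (-0.47, SE 0.11) at values below the array median. ITGA2 lost its call without either A673 siRNA array. Of 13 collagen-binding matrix proteins, 2 were higher and 2 lower. FN1, the gene of fibronectin, was at 9.50, 10.05 and 9.85 in A673, against 6.17, 7.03 and 7.42 in SK-N-MC (2.92, SE 0.26), and NID2, a basement membrane linker, was higher (1.18, SE 0.14). DCN, which codes for a small proteoglycan on collagen fibrils and is also one of the fibroblast markers, was at 1.37, 1.69 and 1.70 in A673, against 4.17, 3.10 and 3.60 in SK-N-MC (-2.03, SE 0.25), and THBS2 was lower (-0.77, SE 0.14). With values under 3 set to 3, DCN, THBS2 and SEC24D were no longer called, among others. The 22 calls in the 5 lists had limma adjusted p-values of at most 0.0380.

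**Figure D4:**
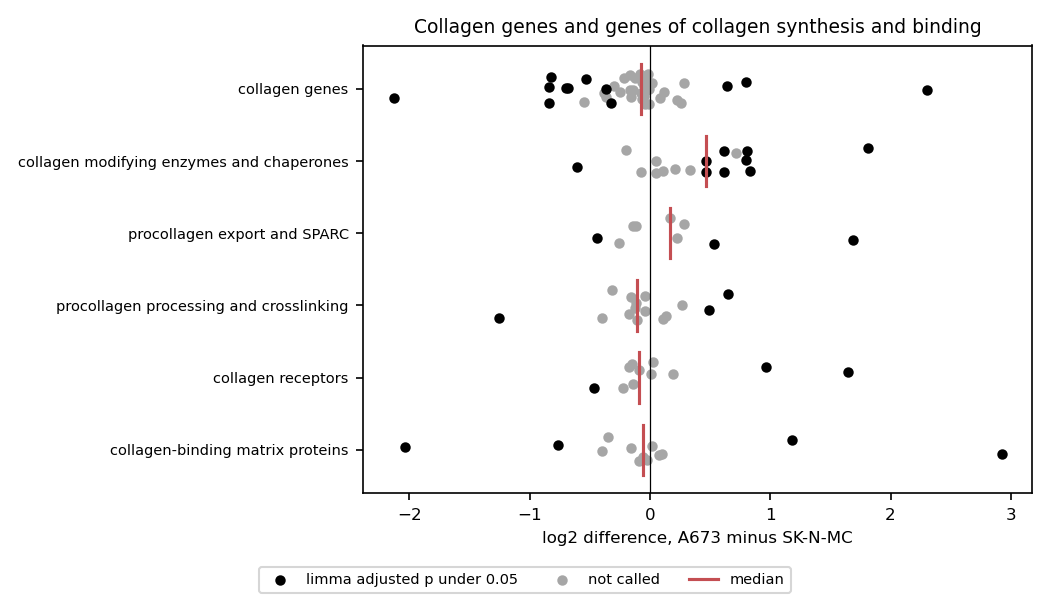
Log2 difference between the lines, A673 minus SK-N-MC (horizontal axis), for the collagen genes and 5 lists of genes that act on collagen, 1 point per gene and a red line at each list's median. Black points are called; the enzymes and chaperones have their median at 0.46 and the collagen genes at -0.07.

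The second comparison asks whether collagen genes differed between cells with siRNA against STEAP1 and control cells over both lines. STEAP1 itself was at 4.53 and 4.59 in the siRNA arrays of A673 against 6.23 in its control array, and at 4.17 and 4.73 in those of SK-N-MC against 7.15 (limma difference -2.18, adjusted p = 0.293). No collagen gene was called across both lines with limma, and 0% of all genes were called. At an unadjusted p under 0.05, limma listed 0 of 43 collagen genes, against 852 of 18417 genes (4.63%). The 43 differences ran from -0.26 to 0.26 with a median of -0.0041, against -0.0050 over all genes. The absence of calls does not show that levels were equal, since STEAP1 itself was not called.

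The collagen gene with the smallest p was COL7A1, at 3.12 and 3.21 in the siRNA arrays of A673 against 3.37 in its control array, and at 3.65 and 3.70 in those of SK-N-MC against 3.94. It was lower in 4 of 4 siRNA arrays (-0.24, SE 0.11, limma adjusted p = 0.989). COL27A1, a fibrillar collagen of cartilage, was at 3.26 and 3.32 in the siRNA arrays of A673 against 3.70, and at 3.12 and 3.22 in those of SK-N-MC against 3.27 (-0.26, SE 0.12, limma adjusted p = 0.989). Leaving out the SK-N-MC control array gave -0.41, and leaving out that of A673 gave -0.10. COL26A1 was at 2.66 and 2.74 in the siRNA arrays of A673 against 2.54, and at 2.82 and 2.82 in those of SK-N-MC against 2.53 (0.22, SE 0.11). COL25A1, the transmembrane collagen found in amyloid plaques, was at 1.68 and 1.95 in the siRNA arrays of A673 against 1.62, and at 2.06 and 1.93 in those of SK-N-MC against 1.77 (0.21, SE 0.12). COL4A3 was at 1.89 and 1.88 in the siRNA arrays of A673 against 1.70, and at 2.11 and 1.81 in those of SK-N-MC against 1.74 (0.20, SE 0.12). These 3 genes were higher in 4 of 4 siRNA arrays without a call (limma adjusted p = 0.989), and COL25A1 and COL4A3 were below the array median. The same sign in 4 of 4 siRNA arrays occurred in 27.9% of the collagen genes and in 21.8% of all genes. Both siRNA arrays of a line share 1 control array, so signs within a line are not independent.

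**Figure D5:**
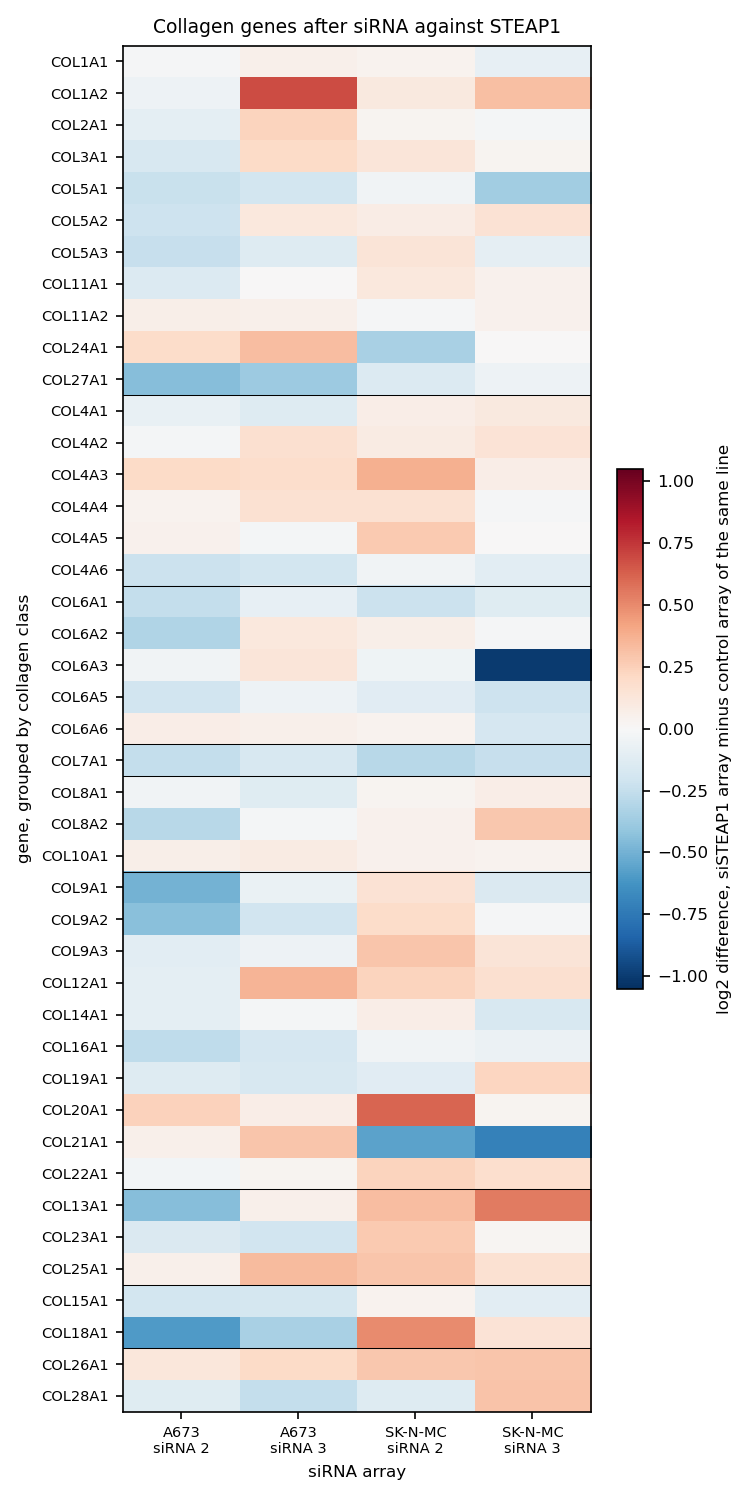
Log2 difference of each siSTEAP1 array from the control array of its own line, for the 43 collagen genes (rows, grouped by class) in the 4 siRNA arrays (columns). Red is higher and blue lower than the control array; COL6A3 with siRNA 3 in SK-N-MC (-1.01) is the only value of 1 or more in size among 172.

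Within A673, no collagen gene and 0% of all genes were called. COL27A1 differed from its control array by -0.45 with siRNA 2 and -0.38 with siRNA 3 (-0.41, SE 0.16). COL18A1, the source of endostatin, was at 3.80 and 4.05 in the siRNA arrays against 4.39 in the control array (-0.47, SE 0.21). COL9A2 was at 3.40 and 3.64 in the siRNA arrays against 3.84 (-0.32, SE 0.19). Each had a limma adjusted p of 1.00, and the 43 differences ran from -0.47 to 0.32 with a median of -0.07, against -0.0028 over all genes.

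Within SK-N-MC, no collagen gene was called, and limma called 0.00543% of all genes. COL21A1, a FACIT-type collagen of vessel walls, was at 5.91 and 5.76 in the siRNA arrays against 6.47 in the control array (-0.63, SE 0.18, limma adjusted p = 0.840). COL13A1, a transmembrane collagen of cell contacts, was at 3.10 and 3.31 in the siRNA arrays against 2.77 in the control array (0.43, SE 0.24), and COL26A1 at 2.82 and 2.82 against 2.53 (0.29, SE 0.16), both with a limma adjusted p of 0.993. The differences ran from -0.63 to 0.43 with a median of 0.05, against -0.0040 over all genes. In the same arrays the interferon genes had a median difference of -2.14, with 23 of 23 below 0. Its part in these values was not tested.

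The A673 response less the SK-N-MC response was 0.81 (SE 0.26) for COL21A1, -0.79 (SE 0.30) for COL18A1 and -0.63 (SE 0.34) for COL13A1. COL21A1 was at 5.44 and 5.67 in the siRNA arrays of A673 against 5.39 in its control array, above it in both, where in SK-N-MC both were below. COL18A1 ran the other way, at 4.74 and 4.39 in the siRNA arrays of SK-N-MC against 4.25 in its control array. COL13A1 was at 2.62 and 3.13 in the siRNA arrays of A673 against 3.07, on either side of the control array, and its value was -0.38 without the A673 siRNA 2 array and -0.22 with values under 3 set to 3. No collagen gene and 0% of all genes were called in this test (limma adjusted p = 1.00 for each of the 3), and 2 of 43 collagen genes had an unadjusted p under 0.05, against 3.86% of all genes.

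Between the siRNAs, siRNA 2 minus siRNA 3 in both lines, no collagen gene and 0% of all genes were called. COL1A2 was at 6.74 with siRNA 2 and 7.48 with siRNA 3 in A673, and at 7.82 and 8.02 in SK-N-MC (-0.47, SE 0.16, limma adjusted p = 0.688). It was lower with siRNA 2 in both lines. Leaving out the A673 array of siRNA 2 gave -0.30, and leaving out that of siRNA 3 gave -0.25. COL1A1, its partner chain, differed by 0.02 in the same fit. COL20A1 was at 3.11 with siRNA 2 and 2.94 with siRNA 3 in A673, and at 3.62 and 3.04 in SK-N-MC (0.37, SE 0.15, limma adjusted p = 0.728), with 0.18 without the SK-N-MC siRNA 2 array. COL13A1 differed by -0.36 (SE 0.19, limma adjusted p = 0.811), and by -0.10 without the A673 siRNA 2 array.

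The 65 genes that act on collagen gave no call across both lines either, and 3 of them (4.62%) had an unadjusted p under 0.05 with limma, against 4.63% of all genes. ITGB1 was at 6.47 and 6.69 in the siRNA arrays of A673 against 6.37, and at 5.68 and 5.69 in those of SK-N-MC against 5.26 (0.32, SE 0.12). GP6, a platelet collagen receptor, differed by 0.41 (SE 0.13), and was at or below 3.24 in all arrays. THBS1, an adhesive glycoprotein gene, differed by -0.43 (SE 0.15), with -0.13 within A673 and -0.72 within SK-N-MC. The matrix protein gene SPARC, a collagen chaperone, differed by -0.26 (SE 0.17), with 0.03 within A673 and -0.55 within SK-N-MC. PLOD3 differed by -0.29 (SE 0.20), with 0.01 within A673 and -0.59 within SK-N-MC. FKBP10 (-0.19, SE 0.11), MIA2 (-0.15), LOXL2 (-0.22, SE 0.14), LOX (0.25, SE 0.18) and FMOD (-0.24, SE 0.15) complete the genes of the naming rule. Each of these genes had a limma adjusted p of 0.989.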

How the data were processed

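RNA of 6 samples was hybridised to Affymetrix arrays after labelling of 200 ng, with cells taken at 80% confluency, per the labels' protocols. The authors deposited intensity values on a linear scale, which the submitters' processing notes credit to RMA and to Expression Console 1.1 of Affymetrix. How these were returned to a linear scale, and the genome build, are not given in the sources used here. RMA already includes a normalization between arrays, so log2 of each deposited intensity was used as it stood.

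Of 33297 probe sets, 19460 carried 1 gene symbol, 1754 several and the others had no name here. RefSeq (GRCh38.p14) gave current symbols for 19429 of them by gene identifier, and the probe set with the highest mean stood for each gene. Probe sets with several symbols were not used. limma 3.58.1 in R 4.3.3 (lmFit, eBayes, two-sided) was fitted to all 18417 genes: line and silencing terms (3 residual degrees of freedom) for the lines and for silencing, and 4 group means or siRNA terms (2 residual degrees of freedom) for the other comparisons. Precision is limited by the 6 arrays. The fits were tested on simulated data.

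The members and lists were chosen with earlier results of these data known, and lists were described by counts and medians. Values per array are given for members called with a difference of at least 1, their partner chains, the 5 members with the smallest p for silencing and the 3 for each other response. The other members called between lines and their neighbours were named after their values were seen. Of each list, up to 3 called members per direction and the 2 with the smallest p for silencing were named. Alternatives were another normalization, median centring, a filter at a mean log2 of 4, a floor at 3, averaged probe sets, a trended prior, a replicate block and each array left out. Between the lines, leaving out either control array gives the same fit, from the siRNA arrays alone, and so is a single check.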

Additional observations from a re-analysis of the deposited data

Results flagged for a closer look

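The response to siRNA against STEAP1 had opposite signs in the lines for COL21A1 and COL18A1. They were 2 of the collagen genes named above for the A673 response less the SK-N-MC response. For each, every A673 siRNA array lay on one side of its control array and every SK-N-MC siRNA array on the other. COL21A1 had a response in A673 minus that in SK-N-MC of 0.81, and of 0.69 to 0.92 with single siRNA arrays left out. COL18A1 had a value of -0.79, and of -0.97 to -0.61 with single siRNA arrays left out. The direct test of the difference called neither (limma adjusted p = 1.00 for both). Opposite signs of this kind occurred in 20.0% of all genes and in 7 of the 43 collagen genes, and both arrays of a line share 1 control array.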

How the results depend on the processing

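Between the lines, the count of collagen genes called lower in A673 was 9. It was 5 when genes under a mean log2 of 4 were left out, where only 13 collagen genes were tested. The count was 4 with values under 3 set to 3, and 5 to 9 with single arrays left out, lowest without either control array. Such counts can include genes that were not among the 9, such as COL5A1 among genes with a mean of at least 4. Over all genes tested, the share called in either direction was 42.5%, 10.1% and 17.4% to 23.8% in these settings, against 24.8%. The count called higher, 3, stayed between 2 and 4. For the 65 genes that act on collagen, the 16 called higher became 9 with values under 3 set to 3. Of the genes lost that were followed singly, SEC24D had values under 3, while PLOD2, LOXL1 and SEC13 had none and kept their differences. P4HB, PPIB, COLGALT1, SERPINH1 and FKBP14 were not followed singly under the alternatives, and they also had no value under 3. The 6 called lower became 2 when genes under a mean log2 of 4 were left out, 1 with values under 3 set to 3, and 3 to 6 with single arrays left out, lowest without the A673 siRNA 2 array. No alternative gave a collagen gene or a gene of the 5 lists a call in the silencing comparisons reported for it. Signs were reversed for 5 differences without a call. COL5A3 between lines was at -0.00696 after a second quantile normalization, -0.0498 without either control array and -0.0256 without SK-N-MC siRNA 3, and its highest value was 0.10, without SK-N-MC siRNA 2. Across lines, LOX was at -0.051 with values under 3 set to 3, and at -0.15 to 0.64 with single arrays left out, lowest without the A673 control array. MIA2 was at 0.00070 with values under 3 set to 3. With single arrays left out, PLOD3 was at -0.59 to 0.012 and SPARC at -0.55 to 0.030, both highest when the SK-N-MC control array was the one missing. The cause was not tested. Among the siSTEAP1 arrays the replicate number names the siRNA, while the control arrays share no number between the lines. The siRNA 2 minus siRNA 3 differences of the lines had a correlation of 0.0663 across all genes and 0.193 across the 7413 genes with a mean of 4 or more, and with 2 numbers and no stated shared origin the arrays were not treated as pairs. With the replicate number of the siSTEAP1 arrays as a replicate block, 3 collagen genes were called higher and 8 lower in A673, with COL10A1 the one lost, and none for silencing. Below the array median, where 15 collagen genes lay, sizes of differences are uncertain.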
